A study of Mus musculus with 24 samples.

Results

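The step from immature to mature B cells was followed in the bone marrow of control mice by comparing sorted mature with sorted immature cells of the same 4 animals. These 8 libraries, 4 of each population, are part of 24 in the series and were chosen by their titles alone, with no measured value. The control mice were VHL flox/WT and MB1 Cre +/WT. They carried 1 Vhl allele flanked by lox sites and 1 copy of a Cre recombinase driven from Mb1 (Cd79a), a gene active in the B lineage from an early stage. Cre and at least 1 floxed allele were present in every mouse of the series, so both populations compared here carried them, and mice without Cre were not analysed here. The other group used, for 1 comparison at the end, held the same 2 populations of 4 VHL flox/flox, MB1 Cre +/WT mice. The combined sort of pro-B and pre-B cells of the control mice, labelled proBpreB, served for levels alone. The gates, the strain and the age and sex of the mice could not be taken from the sources used here. All genes were kept, and 12850 had enough counts to be tested.

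Immature B cells are the first cells of the lineage to carry a complete antigen receptor, immunoglobulin M, on their surface. Cells whose receptor binds self antigen can go on rearranging light chain genes, be silenced or die. The others leave the marrow, pass through a transitional stage and become mature cells, which gain CD21 and CD23, carry MHC class II at high level, recirculate through lymph nodes and spleen and return to the marrow. Precursor B cells divide in a burst before the immature stage, whereas mature recirculating cells rest until they meet antigen.

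The 8 libraries held 8153548 to 11863949 counts assigned to genes, so that 3 counts corresponded to 0.253 to 0.368 CPM (counts scaled to a common library size). All levels below are CPM after TMM scaling between libraries, given for mice 1 to 4 in that order. Vhl, on chromosome 6, 113623994 to 113631634 (GRCm38), measured 47.9, 34.2, 26.7 and 33.1 CPM in the immature and 30.5, 26.3, 27.4 and 32.4 CPM in the mature libraries of mice 1 to 4. The populations overlapped, and Vhl was lower in the mature library of 3 of 4 mice (log2 fold change -0.26 ± 0.21 SE, adjusted p = 0.358, two-sided exact permutation p = 0.25 over sign changes of the 4 paired differences, where 0.125 is the smallest p possible). In flox/flox mice Vhl averaged 5.58 ± 2.31 CPM in immature and 7.60 ± 1.90 CPM in mature cells (SD, n = 4). Of the markers listed for the 2 stages, 4 are given first. Whether the sort used them is not known, and other members of the same lists went the other way, as given below. Cd93, the AA4.1 antigen of immature cells, measured 41.5, 47.6, 46.3 and 51.9 CPM in the immature and 16.0, 16.2, 4.73 and 8.38 CPM in the mature libraries of mice 1 to 4. Cd24a, the heat stable antigen that is high on immature cells, measured 1895, 1659.7, 1483 and 1559.6 CPM in the immature and 471, 443, 326 and 346 CPM in the mature libraries of mice 1 to 4. For both genes all 4 immature libraries were above all 4 mature ones. Fcer2a, the CD23 receptor for immunoglobulin E, measured 363, 426, 382 and 402 CPM in the immature and 1788, 1845, 1576 and 1751 CPM in the mature libraries of mice 1 to 4. Cr2, the complement receptor CD21, measured 93.2, 107, 112 and 108 CPM in the immature and 468, 381, 365 and 412 CPM in the mature libraries of mice 1 to 4. All mature values of these 2 genes lay above all immature values. The populations did not overlap in this way for 3837 genes in either direction, 29.9% of those tested.

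**Figure D1:**
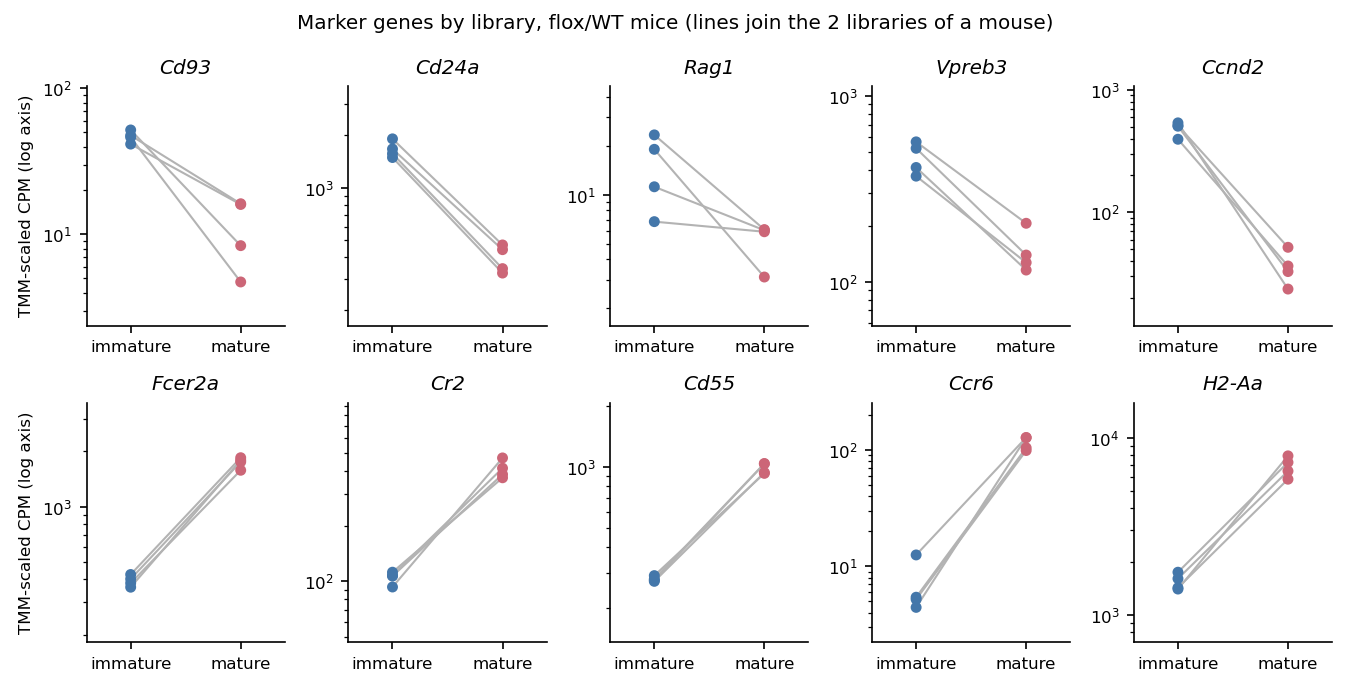
Levels of 10 marker genes in the 8 libraries, in TMM-scaled CPM on a log axis; each point is 1 library and each line joins the immature (blue) and mature (red) library of 1 mouse. The 5 genes of the upper row were lower and the 5 of the lower row higher in the mature library of every mouse, and for none of the 10 did the populations overlap.

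Mature and immature cells differed over a large share of the transcriptome, in both directions. 2116 genes were higher in mature cells, 16.5% of the 12850 tested, and 2320 were lower, 18.1% (edgeR quasi-likelihood test with the mouse as a block, Benjamini-Hochberg adjusted p under 0.05). Together 4436 genes were called, 34.5%. A change of at least 2-fold was called for 558 genes that rose, 4.34%, and 966 that fell, 7.52%, in all 1524, 11.9%. Of the called genes, 4131 (93.1%) moved in the direction of the call in all 4 mice. The calls rest on the same 4 mice, so this count is a description and no separate test. Among changes of at least 2-fold, falls outnumbered rises. With library totals as the only scaling, 1645 genes were higher and 2839 lower, so that rises made up 36.7% of the calls against 47.7% here; the median of all genes moved from 0.00063 to -0.081 on the log2 scale.

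**Figure D2:**
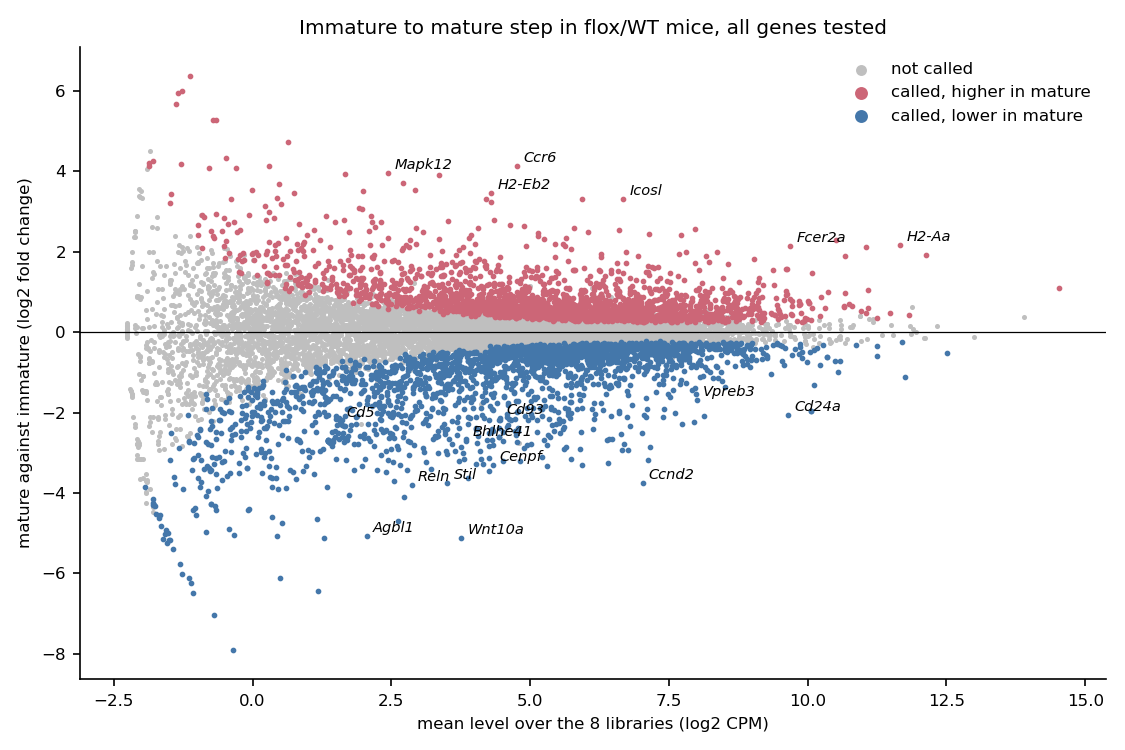
Log2 fold change of mature against immature cells for the 12850 genes tested, against the mean level over the 8 libraries in log2 CPM. Red points were called higher in mature (2116), blue points lower (2320) and grey points neither; Ccr6 and Icosl lie among the largest rises and Wnt10a and Ccnd2 among the largest falls.

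Markers of other marrow cells were also measured. Of 24 neutrophil and monocyte markers tested, 10 were higher and 0 (1 with total-count scaling or with at least 10 CPM in 4 libraries or without the mouse block or in limma-voom or without mouse 1) lower in the mature libraries, and their summed level ran from 9624 to 11183 CPM in immature and from 13277 to 20435 CPM in mature libraries. S100a8, a granule protein of neutrophils, measured 1713, 1404, 1336 and 1676 CPM in the immature and 3739, 2994, 3161 and 2695 CPM in the mature libraries of mice 1 to 4. Erythroid markers summed to 2571 to 8116 CPM in immature and 3847 to 10813 CPM in mature libraries, and 3 (1 without the mouse block or in limma-voom) of 16 rose and 1, Tfrc, fell. T cell markers were low. Their summed level of 234 to 282 and 316 to 403 CPM was mostly Cd2, which B cells also express, and Cd3e, which defines T cells, measured 0.505, 3.05, 3.03 and 3.70 CPM in the immature and 2.41, 6.04, 2.12 and 5.05 CPM in the mature libraries of mice 1 to 4. 6 (2 with only the 8 libraries compared or without mouse 4, 3 without mouse 2) of 18 T cell markers rose and 0 fell. Natural killer markers summed to at most 51.2 CPM, and 3 (1 with only the 8 libraries compared or in limma-voom or without mouse 2) of 14, namely Klrd1, Gzma and Nkg7, were higher. Of 12 stromal and endothelial markers, 1, Pecam1, rose and 1 (0 with at least 10 CPM in 4 libraries or with only the 8 libraries compared, 2 without mouse 1), Cdh5, fell. Of 17 plasmacytoid dendritic cell markers, 1 (2 without mouse 4), Pacsin1, rose and 5 (2 in limma-voom or without mouse 4, 3 with only the 8 libraries compared or with only the 12 flox/WT libraries or without mouse 3) fell, among them Spib, which B cells express as well. Of all genes tested 16.5% rose and 18.1% fell. The shares that rose were 41.7% of the neutrophil and monocyte, 33.3% of the T cell, 21.4% of the natural killer and 18.8% of the erythroid markers. The last 2 lie near the share of all genes. Of stromal and endothelial markers 8.33% rose and 8.33% fell, and of plasmacytoid dendritic cell markers 5.88% and 29.4%. The part of these other marrow cells in the results below was not tested. In such bulk samples, fewer cells of a type and less RNA per cell cannot be told apart.

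The 15 largest rises and 15 largest falls described next were taken from called genes of moderate or high level without overlap between populations. The absence of overlap in them is therefore no result. The largest of these rises was that of Ccr6, the receptor for the chemokine CCL20 (chromosome 17, 8236041 to 8258519). It measured 5.43, 5.21, 12.5 and 4.44 CPM in the immature and 104, 98.9, 128 and 128 CPM in the mature libraries of mice 1 to 4. Every mature library held at least 98.9 CPM and no immature library more than 12.5 (log2 fold change 4.12 ± 0.21 SE, adjusted p = 2.31e-12). Icosl, the ligand through which B cells engage ICOS on helper T cells, measured 22.9, 32.1, 37.2 and 39.2 CPM in the immature and 319, 262, 356 and 359 CPM in the mature libraries of mice 1 to 4. Its 4 mature values were all above the 4 immature ones (log2 fold change 3.32 ± 0.17 SE, adjusted p = 3.53e-12). Stat4, a transcription factor activated downstream of the interleukin-12 receptor, measured 14.8, 17.5, 26.2 and 19.7 CPM in the immature and 186, 208, 209 and 168 CPM in the mature libraries of mice 1 to 4 (log2 fold change 3.30 ± 0.17 SE, adjusted p = 3.44e-12). Il9r, the receptor chain for interleukin-9, rose from 3.92, 5.97, 10.5 and 6.29 to 56.9, 44.3, 89.0 and 57.5 CPM, again without overlap (log2 fold change 3.25 ± 0.26 SE, adjusted p = 4.13e-09).

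The other large rises included signalling enzymes. Mapk12, the gamma isoform of the p38 kinases, measured 1.01, 0.762, 1.60 and 1.85 CPM in the immature and 20.7, 16.2, 20.7 and 23.5 CPM in the mature libraries of mice 1 to 4 (log2 fold change 3.95 ± 0.31 SE, adjusted p = 9.79e-10). Rapgef4, an exchange factor for Rap that is activated by cyclic AMP, measured 6.06, 4.57, 8.16 and 4.91 CPM in the immature and 39.7, 66.5, 57.0 and 69.1 CPM in the mature libraries of mice 1 to 4 (log2 fold change 3.32 ± 0.32 SE, adjusted p = 4.87e-08). Dusp4, a phosphatase of MAP kinases, rose (log2 fold change 2.73, adjusted p = 2.64e-06). Genes of secreted proteins were among them too: Crisp3, a cysteine-rich secretory protein, went from 1.64, 2.92, 1.93 and 4.07 to 32.0, 54.2, 33.2 and 38 CPM, and Pglyrp2, an amidase that cleaves bacterial peptidoglycan, from 0.884, 1.65, 2.19 and 2.13 to 24.1, 25.7, 20.5 and 21.4 CPM. Fam212a, an inhibitor of the kinase PAK4 that RefSeq names Inka1, had a log2 fold change of 3.55 (adjusted p = 1.18e-09). By log2 fold change, the remaining members of the 15 were H2-Eb2 at 3.45, Pear1 at 2.78, Smagp at 2.78, Setbp1 at 2.74 and Chst10, a sulfotransferase that makes the HNK-1 carbohydrate, at 2.65. By the selection, all 15 were higher in the mature library of every mouse.

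The deepest fall among genes of moderate or high level without overlap was that of Wnt10a, a secreted Wnt ligand (chromosome 1, 74792019 to 74804176). It measured 103, 95.8, 53.5 and 77.5 CPM in the immature and 3.14, 1.01, 1.49 and 3.71 CPM in the mature libraries of mice 1 to 4, and the highest mature value was far below the lowest immature one (log2 fold change -5.12 ± 0.26 SE, adjusted p = 2.31e-12). Wnt10b, another Wnt ligand, named after its values were seen, had 261 counts in the 4 immature libraries together and 3 in the mature ones, a ratio of 78.6 with a 95% counting interval of 26.6 to 384. In proBpreB cells Wnt10a averaged 1.14 CPM, so its level was high at the immature stage between 2 low ones. Ccnd2, cyclin D2, which drives entry into the cell cycle after receptor signals, measured 538, 511, 505 and 395 CPM in the immature and 23.6, 51.8, 32.8 and 36.5 CPM in the mature libraries of mice 1 to 4 (log2 fold change -3.75 ± 0.18 SE, adjusted p = 1.32e-12). It too was higher in immature than in proBpreB cells, where it averaged 58.1 CPM. Dusp10, a phosphatase of the stress kinases JNK and p38, went from 149, 138, 113 and 105 to 11.1, 11.4, 14.6 and 12.3 CPM (log2 fold change -3.34 ± 0.18 SE, adjusted p = 3.53e-12), against 15.8 CPM in proBpreB cells.

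The 15 largest falls included genes of extracellular proteins. Reln, the matrix protein reelin, measured 16.8, 39.6, 32.8 and 39.5 CPM in the immature and 2.41, 0.126, 2.12 and 4.29 CPM in the mature libraries of mice 1 to 4 (log2 fold change -3.81 ± 0.38 SE, adjusted p = 3.34e-07). Egfl6, an EGF-like matrix protein, fell (log2 fold change -3.71, adjusted p = 8.00e-11), and Col5a3, a chain of collagen V (-3.62, adjusted p = 6.69e-12). Adgrl2, the adhesion receptor latrophilin 2, fell (log2 fold change -3.47, adjusted p = 7.03e-09). Agbl1, a cytosolic carboxypeptidase, went from 25.4, 18.7, 19.7 and 23.1 to 0.241, 0.880, 0.498 and 0.952 CPM. Pask, a kinase with a PAS domain, had a log2 fold change of -3.43 (adjusted p = 1.74e-08). Stil, needed to duplicate centrioles, had a log2 fold change of -3.76 (-4.36 without mouse 1), Rtkn2, rhotekin 2, at -3.44 (-4.14 without mouse 1), and Cenpf, a kinetochore protein, at -3.31. On the same log2 scale Shisa8 at -3.45 and Akap17b at -3.39 were also in the group. By the selection, the lowest immature value exceeded the highest mature value in all 15. Of these 15 genes, 8 were lower in proBpreB than in immature cells by their means, and so were 1024 of the 2320 genes called lower in mature cells, 44.1%.

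Surface proteins that mark the mature cell rose more often than they fell. Of 25 mature B cell surface markers tested, 13 rose (52%) and 4 fell (16%), beside 16.5% and 18.1% of all genes tested. The median log2 fold change was 0.31 beside 0.00063 over all genes tested. Apart from Fcer2a (log2 fold change 2.14, adjusted p = 1.51e-07) and Cr2 (1.95, adjusted p = 7.42e-10), the largest rises were those of Cd55, an inhibitor of complement, which went from 275, 290.1, 272 and 279 to 1033, 926, 935 and 1035 CPM, and Ly6a, the Sca-1 antigen (1.73, adjusted p = 3.20e-06). Cd69, a lectin that holds back the egress receptor S1PR1, rose from 49.4, 29.8, 31.3 and 36.3 to 98.9, 102, 126 and 113 CPM. Cd200, a ligand that restrains myeloid cells, had a log2 fold change of 1.20 (adjusted p = 1.23e-05). The members that fell were Ms4a1, Cd1d1, Ly6d and Cd44. Ms4a1, which encodes CD20, measured 6112, 5479, 4511 and 4286 CPM in the immature and 2584, 2178, 2559.9 and 2129 CPM in the mature libraries of mice 1 to 4, so that the transcript was more abundant in immature cells of every mouse (log2 fold change -1.11 ± 0.17 SE, adjusted p = 1.95e-05). Cd53, a tetraspanin, measured 1399.5 ± 267 CPM in immature and 1712 ± 299 CPM in mature cells (SD, n = 4 mice) and did not pass the test, though it did when only the 8 libraries were fitted (adjusted p = 0.0361).

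Of 19 immature and transitional markers, 9 fell and 1 (0 without mouse 2, 2 without mouse 4), the tetraspanin Cd81, rose, with a median log2 fold change of -0.84 (-0.48 without mouse 3). In this list 47.4% fell and 5.26% rose, beside 18.1% and 16.5% of all genes tested. This list, like the others, was chosen with earlier results of these data known, so its count and median are a description only. Besides Cd93 (log2 fold change -2.14, adjusted p = 7.37e-08) and Cd24a (-2.07, adjusted p = 2.31e-12), the falls included Il2ra, the alpha chain of the interleukin-2 receptor (-2.65, adjusted p = 1.34e-07), Tnfrsf19, also called TROY (-3.03, adjusted p = 1.25e-09), Plxnd1, a semaphorin receptor (-2.47, adjusted p = 2.60e-06) and Gfra1, a receptor for GDNF (-1.98, adjusted p = 3.19e-06). The summed level of the list was 3133, 2948, 2603 and 2712 CPM in immature and 1479, 1523, 1181 and 1182 CPM in mature libraries of mice 1 to 4.

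Receptors that guide cells between and within lymphoid organs changed in a mixed pattern. Of 30 chemokine receptors and egress genes tested, 12 rose (40%) and 7 fell (23.3%), beside 16.5% and 18.1% of all genes tested. The median log2 fold change was 0.16 (0.087 without mouse 2). After Ccr6, the largest rises were those of Gpr183, the oxysterol receptor EBI2 that places B cells at the outer follicle, and Gpr174, a receptor for lysophosphatidylserine and CCL21. Gpr183 measured 83.5, 56.9, 55.9 and 49.8 CPM in the immature and 334, 351, 339.6 and 290.3 CPM in the mature libraries of mice 1 to 4, with no overlap (log2 fold change 2.43 ± 0.16 SE, adjusted p = 5.77e-11). Gpr174 had a log2 fold change of 2.58 (adjusted p = 2.64e-07). The follicular homing receptors were named after their values were seen. Cxcr5 went from 248, 274, 289 and 278 to 569, 620.4, 562 and 493 CPM and Ccr7 from 415, 334, 327 and 330.3 to 628, 633, 792 and 692 CPM. S1pr1, the receptor for sphingosine 1-phosphate that draws cells into blood, rose (log2 fold change 0.42, adjusted p = 0.00528), a call that was lost without mouse 2 (adjusted p = 0.0512). Falls were those of Ackr3, the scavenger receptor for CXCL12 (log2 fold change -3.91, adjusted p = 2.11e-05; -5.31 without mouse 2), Rgs13, a brake on G protein signals (-3.19, adjusted p = 5.34e-07), and S1pr3, known from marginal zone B cells (-2.88, adjusted p = 6.39e-08). Gnai2, the G protein subunit these receptors share, measured 1232 ± 51.7 CPM in immature and 1162 ± 142 CPM in mature cells and did not pass.

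Itgb7, the integrin beta 7 chain that pairs with alpha 4 for homing to gut, rose (log2 fold change 1.89, adjusted p = 6.36e-11) and Alcam, an adhesion molecule that binds CD6 (2.30, adjusted p = 3.84e-05). Over the list of integrins and adhesion genes, 7 of 27 members tested rose and 5 (1 without mouse 3, 2 without mouse 4, 3 with only the 8 libraries compared) fell (25.9% and 18.5%, beside 16.5% and 18.1% of all genes tested).

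Genes that present antigen to helper T cells rose. MHC class II molecules carry peptides from ingested antigen, the invariant chain (Cd74) and the H2-DM and H2-DO molecules govern their loading, and Ciita is the coactivator that switches the genes on. Of 24 members tested, 16 rose and 3 fell, with a median log2 fold change of 0.99. H2-Aa, the alpha chain of I-A, measured 1744, 1401, 1605 and 1426 CPM in the immature and 7269, 7904, 6489 and 5838 CPM in the mature libraries of mice 1 to 4 (log2 fold change 2.16 ± 0.15 SE, adjusted p = 4.06e-10). H2-Ab1, its beta chain, rose (log2 fold change 1.92, adjusted p = 2.72e-11) and H2-Eb1, the beta chain of I-E (2.12, adjusted p = 2.15e-09). H2-Eb2, a further class II beta chain, went from 3.66, 4.45, 6.81 and 9.16 to 70.4, 64.9, 61.0 and 65.6 CPM. Ciita itself measured 119.6, 171, 195 and 170.2 CPM in the immature and 489.8, 483, 567 and 681 CPM in the mature libraries of mice 1 to 4, also without overlap (log2 fold change 1.76 ± 0.16 SE, adjusted p = 2.58e-08). H2-DMb1 rose (log2 fold change 1.68, adjusted p = 3.85e-10). Rfx5 (log2 fold change 0.055, adjusted p = 0.749) and Rfxank (-0.0067, adjusted p = 0.977), subunits of the factor that binds class II promoters with Ciita, did not pass the test. The members that fell were Ifi30, a thiol reductase of the lysosome (log2 fold change -1.53, adjusted p = 3.41e-10) and the cathepsins Ctsb and Ctsz. In the class I pathway, 4 (2 with total-count scaling or without mouse 3) of 20 members tested rose and 4 (1 without the mouse block or without mouse 2, 2 with only the 12 flox/WT libraries or without mouse 4) fell. These class I shares, 20% each, lie near the 16.5% and 18.1% of all genes tested.

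Class II promoters carry a Y box, the letters ATTGG, which is CCAAT read on the other strand, near the start of the gene. The 250 bases before the start of 3 members that rose are shown from RefSeq (GRCm38), 5′ to 3′ on the strand of the gene, with CCAAT on either strand in capitals. H2-Aa lies at chr17:34287824-34288073, minus strand, H2-Eb1 at chr17:34305617-34305866, plus strand and H2-DMb1 at chr17:34152941-34153190, plus strand.
H2-Aa: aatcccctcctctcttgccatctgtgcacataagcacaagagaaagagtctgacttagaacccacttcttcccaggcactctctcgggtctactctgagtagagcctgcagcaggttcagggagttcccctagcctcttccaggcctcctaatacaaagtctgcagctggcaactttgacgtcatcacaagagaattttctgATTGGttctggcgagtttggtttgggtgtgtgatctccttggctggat
H2-Eb1: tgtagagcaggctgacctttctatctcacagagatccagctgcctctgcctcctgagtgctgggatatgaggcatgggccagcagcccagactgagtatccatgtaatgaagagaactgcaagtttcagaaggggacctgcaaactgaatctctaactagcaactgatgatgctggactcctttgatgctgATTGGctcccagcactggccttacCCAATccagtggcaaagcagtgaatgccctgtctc
H2-DMb1: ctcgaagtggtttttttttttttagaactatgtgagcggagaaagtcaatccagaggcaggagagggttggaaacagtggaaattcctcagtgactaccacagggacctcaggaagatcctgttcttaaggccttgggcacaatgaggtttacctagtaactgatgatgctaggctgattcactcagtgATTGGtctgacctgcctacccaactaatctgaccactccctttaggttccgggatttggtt
ATTGG begins 48 bases before the start in H2-Aa, 59 before it in H2-Eb1 and 61 before it in H2-DMb1. CCAAT is a common word: 34.5% of all 27025 promoter windows of this length hold it on either strand. Only 18 of the 24 class II members had a window, so a share over the list would be void. A match describes these letters and does not show that a factor is bound.

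Genes of receptor assembly fell more often than they rose. Of 19 surrogate light chain and recombination genes, 11 fell (57.9%) and 2 (1 in limma-voom) rose (10.5%), beside 18.1% and 16.5% of all genes tested. The median log2 fold change was -0.55. Rag1, a subunit of the recombinase that cuts immunoglobulin genes, measured 6.82, 11.2, 19.0 and 23.3 CPM in the immature and 5.91, 6.04, 3.11 and 6.09 CPM in the mature libraries of mice 1 to 4, against a mean of 267 CPM in proBpreB cells. Mouse 4 had the highest immature value and mouse 1 the lowest, and all 4 exceeded the mature values (log2 fold change -1.51 ± 0.32 SE, adjusted p = 0.00115). Rag2, its partner, had a log2 fold change of -2.0 (adjusted p = 6.51e-05). Vpreb3, a chaperone of the pre-B cell receptor, went from 369.8, 566, 412 and 522 to 127, 206, 115 and 139 CPM. Polm and Lig4, a polymerase and the ligase of end joining, fell (log2 fold changes -1.98 and -1.42, adjusted p = 4.06e-10 and 7.10e-07), and Hmgb2, a DNA-bending cofactor of the recombinase that also follows proliferation (log2 fold change -1.35, adjusted p = 1.65e-09). Xrcc5, the Ku80 subunit, measured 37.5 ± 4.03 CPM in immature and 33.2 ± 5.45 CPM in mature cells and did not pass. The members that rose were Poll and Vpreb1, the latter call being lost in limma-voom (adjusted p = 0.144). Vpreb1, a surrogate light chain component, stayed low at 2.40, 2.92, 4.12 and 3.52 CPM in the immature and 7.12, 8.68, 7.22 and 6.09 CPM in the mature libraries of mice 1 to 4, against 345 CPM in proBpreB cells.

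Among 20 transcription factors of progenitor cells, 8 fell (40%) and 4 rose (20%), beside 18.1% and 16.5% of all genes tested. Their median log2 fold change was -0.27 (-0.52 without mouse 1, -0.62 without mouse 2, -0.15 without mouse 3 and -0.025 without mouse 4). Meis1, a homeobox factor of stem cells, fell (log2 fold change -2.67, adjusted p = 2.80e-06), Zeb2 (-1.75, adjusted p = 5.39e-10), Sox4, needed for early B cells (-1.74, adjusted p = 4.78e-09), Myb (-1.70, adjusted p = 4.02e-08) and Gfi1, a repressor (-1.65, adjusted p = 9.87e-06). Lmo2, a scaffold of haematopoietic transcription complexes, rose (log2 fold change 1.41, adjusted p = 4.06e-10). Bcl11a, which is required to enter the B lineage, measured 255 ± 13.3 CPM in immature and 264 ± 35.4 CPM in mature cells and did not pass.

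The factors that define B cell identity split. Of 37 B lineage and maturation factors, 9 rose (24.3%) and 12 fell (32.4%), beside 16.5% and 18.1% of all genes tested. Zfp318, which permits the long transcript that encodes immunoglobulin D, measured 48.6, 54.0, 56.4 and 51.4 CPM in the immature and 192, 199, 213 and 241 CPM in the mature libraries of mice 1 to 4 (log2 fold change 2.00 ± 0.12 SE, adjusted p = 1.83e-11). Tbx21, or T-bet, rose (log2 fold change 1.66, adjusted p = 4.71e-04). The deepest fall was that of Bhlhe41, a repressor known from B-1 cells, which measured 49.0, 26.7, 39.2 and 35.6 CPM in the immature and 2.65, 9.31, 7.22 and 4.76 CPM in the mature libraries of mice 1 to 4 (log2 fold change -2.69 ± 0.29 SE, adjusted p = 4.35e-07) against 2.93 CPM in proBpreB cells. Its relative Bhlhe40 fell (log2 fold change -2.26, adjusted p = 2.83e-11), Zbtb32 (-2.01, adjusted p = 1.80e-04) and Arid3a, or Bright (-1.56, adjusted p = 3.17e-08). Irf8 (log2 fold change -0.092, adjusted p = 0.492) and Pou2af1, the coactivator OCA-B (-0.10, adjusted p = 0.422) did not pass. Of 32 Klf factors and quiescence genes, 10 rose (31.2%) and 7 fell (21.9%), beside the same 16.5% and 18.1%. Their median log2 fold change was 0.21. Tsc22d3, the glucocorticoid-induced leucine zipper, rose (log2 fold change 1.05, adjusted p = 2.71e-06) and Txnip, which limits glucose uptake (0.85, adjusted p = 6.99e-06). Klf2, which enforces quiescence and homing in lymphocytes and was named after its value was seen, rose (log2 fold change 0.43, adjusted p = 0.00625), a call lost without mouse 2 (adjusted p = 0.0948). The members that fell the most included inhibitors of cyclin-dependent kinases: Cdkn2c (log2 fold change -2.11, adjusted p = 3.14e-09) and Cdkn1a, or p21, which went from 19.8, 15.0, 15.5 and 18.2 to 5.07, 5.66, 3.48 and 3.14 CPM.

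Components of antigen receptor signalling showed small changes in both directions. Of 43 members, 12 rose and 9 fell (27.9% and 20.9%, beside 16.5% and 18.1% of all genes tested). Cd79a, from whose locus Cre is expressed, measured 1669.6 ± 143 CPM in immature and 1856 ± 404 CPM in mature cells, and Cd79b 3775 ± 327 CPM in immature and 3649 ± 251 CPM in mature cells (SD, n = 4 mice). Neither passed the test. The exchange factors that link the receptor to Ras moved in opposite directions, Rasgrp3 (log2 fold change 1.48, adjusted p = 1.13e-08) and Rasgrp1 (-1.0, adjusted p = 1.06e-05). Pik3ap1, the adaptor BCAP that recruits PI3 kinase, fell (log2 fold change -0.98, adjusted p = 3.92e-07). Orai1, the pore of the store-operated calcium channel, rose (log2 fold change 0.69, adjusted p = 2.44e-04). Of 35 inhibitory coreceptors and their adaptors, 13 rose (37.1%) and 6 fell (17.1%), beside the same 16.5% and 18.1%. Their median log2 fold change was 0.15. Lax1, an adaptor that restrains receptor signals, rose (log2 fold change 2.49, adjusted p = 7.20e-12), Clec2i (2.31, adjusted p = 3.80e-09) and Pdcd1lg2, the PD-1 ligand PD-L2 (2.18, adjusted p = 7.02e-07). Cd5, a brake on the receptor that self-reactive cells carry, measured 3.79, 5.33, 7.91 and 7.77 CPM in the immature and 0.603, 1.64, 1.87 and 1.24 CPM in the mature libraries of mice 1 to 4 (log2 fold change -2.22 ± 0.42 SE, adjusted p = 2.58e-04), against 1.61 CPM in proBpreB cells. Fcrl5 fell (log2 fold change -1.76, adjusted p = 1.94e-05).

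Survival signals from the TNF family and NF-kB were measured next. In the TNF family, 5 (3 without mouse 2) of 23 members tested rose and 1 fell, with a median log2 fold change of 0.38 (0.22 without mouse 4). These shares, 21.7% and 4.35%, stand beside 16.5% and 18.1% of all genes tested. Tnfrsf13c, the receptor for BAFF that mature cells depend on, was the member that fell and measured 758, 745, 735 and 694 CPM in the immature and 431, 455, 486 and 472 CPM in the mature libraries of mice 1 to 4, so that every mature library was below every immature one (log2 fold change -0.67 ± 0.089 SE, adjusted p = 2.87e-06). Lta, lymphotoxin alpha, rose from 8.59, 5.33, 9.34 and 11.3 to 20.4, 25, 22.1 and 28.1 CPM (log2 fold change 1.48 ± 0.21 SE, adjusted p = 6.75e-06) and Ltb, its membrane partner (log2 fold change 0.65, adjusted p = 7.10e-05). Tnfrsf13b, or TACI, measured 147 ± 21.2 CPM in immature and 129 ± 7.00 CPM in mature cells and Cd40 141 ± 15.8 CPM in immature and 169 ± 20.0 CPM in mature cells, and neither passed. Of 30 NF-kB subunits and regulators, 14 rose (46.7%) and 4 (2 without mouse 2) fell (13.3%), beside the same 16.5% and 18.1%. Their median log2 fold change was 0.29. Traf1, an adaptor of TNF receptors, rose (log2 fold change 1.78, adjusted p = 7.45e-08), the kinases Ikbke and Ikbkb (log2 fold changes 1.29 and 0.94, adjusted p = 0.0016 and 1.82e-06), and Tnip2 (1.13, adjusted p = 1.50e-04). Nfkbid, a nuclear IkB protein induced by strong receptor signals, fell (log2 fold change -2.10, adjusted p = 2.90e-07). Of 10 Bcl2 family proteins of the survival list, 10% rose and 20% fell, near the 16.5% and 18.1% of all genes tested. Bcl2l1 (log2 fold change -0.96, adjusted p = 9.31e-05) and Mcl1 (-0.62, adjusted p = 1.03e-05) fell and Bcl2l2 (2.13, adjusted p = 0.0491) rose. The last call was lost with total-count scaling, without the expression filter and without mouse 1, 2 or 4 (adjusted p = 0.0594, 0.0677, 0.0531, 0.383 and 0.215), and the log2 fold change was 1.09 without mouse 2 and 3.68 without mouse 3. Bcl2 measured 101, 80.1, 96.8 and 95.5 CPM in the immature and 84.3, 132, 121 and 122 CPM in the mature libraries of mice 1 to 4, with overlap (log2 fold change 0.30 ± 0.14 SE, adjusted p = 0.115; adjusted p = 0.0176 without mouse 1). Among 6 BH3-only genes that promote death, 33.3% rose and 33.3% fell, beside 16.5% and 18.1% of all genes tested. Pmaip1, or NOXA, rose (log2 fold change 1.55, adjusted p = 3.65e-05) and Bcl2l11, or BIM (0.70, adjusted p = 1.55e-04), whereas Bad fell (-0.82, adjusted p = 4.27e-04) and Bid (-0.55, adjusted p = 4.60e-04). Bbc3, or PUMA, measured 4.32 ± 0.339 CPM in immature and 4.20 ± 0.967 CPM in mature cells and did not pass.

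Of 37 cytokine receptors and their signalling proteins, 17 rose (45.9%) and 5 (3 without mouse 3 or 4) fell (13.5%), beside 16.5% and 18.1% of all genes tested. Socs3, a feedback inhibitor of cytokine signals, rose (log2 fold change 1.92, adjusted p = 4.42e-06). Il6ra, the interleukin-6 receptor chain, measured 7.58, 10.3, 26.5 and 9.53 CPM in the immature and 29.1, 34.8, 33.0 and 36.1 CPM in the mature libraries of mice 1 to 4; the immature library of mouse 3 stood above the others (log2 fold change 1.4 ± 0.24 SE, adjusted p = 7.02e-05). Neutrophils and monocytes also express Il6ra, and their part in its level was not tested. Csf2rb, the shared beta chain of the receptors for GM-CSF, interleukin-3 and interleukin-5, fell (log2 fold change -1.44, adjusted p = 3.24e-06); its near-identical neighbour Csf2rb2 could share reads with it, so the split between them is uncertain. The median log2 fold change of 18 costimulation genes was 0.36 (0.22 without mouse 3). Of these genes, 7 rose (38.9%) and 1 (2 with total-count scaling), Slamf9, fell (5.56%). This fall was large (log2 fold change -3.28, adjusted p = 1.51e-10), and Slamf1, a self-ligand of activated lymphocytes, rose (1.55, adjusted p = 1.56e-06). Of 24 Toll-like receptors and partners, 5 rose and 6 (3 without mouse 1) fell (20.8% and 25%, beside 16.5% and 18.1% of all genes tested). Tlr9, the endosomal sensor of CpG DNA, measured 14.3, 16.3, 14.0 and 14.3 CPM in the immature and 5.43, 5.66, 4.73 and 3.90 CPM in the mature libraries of mice 1 to 4 (log2 fold change -1.59 ± 0.23 SE, adjusted p = 7.39e-06). Tlr3, the sensor of double-stranded RNA, rose from 0.253, 0.762, 0.252 and 0.185 to 4.10, 1.38, 4.35 and 4.09 CPM; the values were near the level of 3 counts in immature cells, mouse 2 rose the least, and the log2 fold change was 3.33 (adjusted p = 1.70e-04; 4.16 without mouse 2). Tlr12 fell (log2 fold change -2.30, adjusted p = 9.38e-07) and Irak3, an inhibitor of these receptors, rose (1.21, adjusted p = 1.49e-08).

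**Figure D3:**
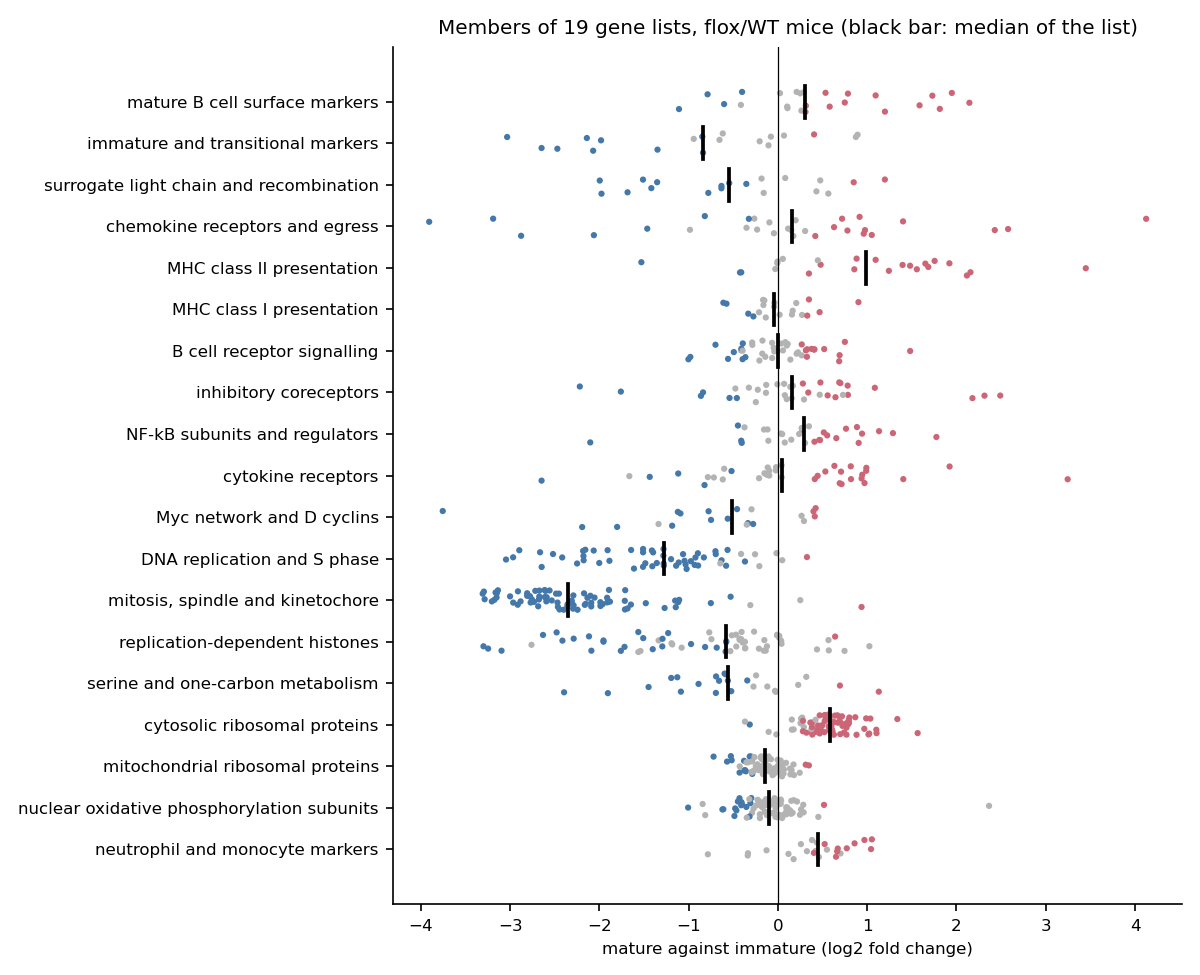
Log2 fold change of mature against immature cells for the members of 19 gene lists; each point is 1 gene, red and blue points were called higher and lower, grey points were not called, and the black bar is the list's median. The mitosis list lies almost wholly to the left, with a median log2 fold change of -2.36, and the cytosolic ribosomal proteins lie to the right, with a median log2 fold change of 0.58.

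Among all the lists examined, mitosis genes had the largest share of members that fell. Mitosis genes encode the spindle, the kinetochores that attach chromosomes to it, and the kinases and ligases that time its steps. Of 78 members tested, 75 fell and 1 rose, with a median log2 fold change of -2.36. Their summed level was 5121, 5422, 7128 and 7101 CPM in the immature and 2039.8, 1996, 1339 and 1469 CPM in the mature libraries of mice 1 to 4. Every immature library was therefore above every mature one, and the step was smaller in mice 1 and 2 than in mice 3 and 4. Mki67, the antigen Ki-67 of cycling cells, measured 64.9, 174, 352 and 272 CPM in the immature and 30.6, 42.0, 8.83 and 14.9 CPM in the mature libraries of mice 1 to 4. Mouse 1 had the lowest immature value and mouse 3 the highest (log2 fold change -3.29 ± 0.59 SE, adjusted p = 7.30e-04; log2 fold change -2.57 without mouse 3, and adjusted p = 0.115 when only the 8 libraries were fitted). Top2a, the topoisomerase that untangles sister chromosomes, measured 309, 372, 537 and 476 CPM in the immature and 69.7, 68.7, 28.1 and 34.3 CPM in the mature libraries of mice 1 to 4 (log2 fold change -3.18 ± 0.28 SE, adjusted p = 1.12e-07). Kif18b, Nek2 and Aspm, which act on the spindle and centrosomes, fell with log2 fold changes of -3.29, -3.20 and -3.16 (adjusted p = 2.42e-07, 8.02e-08 and 2.40e-08). Pttg1, securin, was the member that rose (log2 fold change 0.94, adjusted p = 2.90e-06). Cdc25b, a phosphatase that activates CDK1, measured 150.2 ± 35.3 CPM in immature and 177 ± 24.3 CPM in mature cells and Smc4, a condensin subunit, 158 ± 42.6 CPM in immature and 128 ± 22.7 CPM in mature cells, and neither passed (Smc4 passed without mouse 1, adjusted p = 0.0338).

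Sequence words known from the promoters of mitosis genes were looked for in the 250 bases before each start: CCAAT, the site of NF-Y, and TTTGAA, the core of the cell cycle homology region bound by the DREAM complex. Both strands were searched, and the words do not overlap each other. 3 members are shown from RefSeq (GRCm38), 5′ to 3′ on the strand of the gene, with both words in capitals on either strand (ATTGG and TTCAAA are the reverse strand forms). Cdk1, the mitotic kinase, lies at chr10:69352913-69353162, minus strand, Cdc20, an activator of the anaphase ligase, at chr4:118437344-118437593, minus strand, and Top2a at chr11:99024190-99024439, minus strand.
Cdk1: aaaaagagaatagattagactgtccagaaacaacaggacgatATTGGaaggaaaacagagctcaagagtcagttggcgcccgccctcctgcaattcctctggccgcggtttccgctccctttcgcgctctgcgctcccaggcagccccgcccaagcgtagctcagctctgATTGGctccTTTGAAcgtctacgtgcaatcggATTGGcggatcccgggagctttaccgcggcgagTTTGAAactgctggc
Cdc20: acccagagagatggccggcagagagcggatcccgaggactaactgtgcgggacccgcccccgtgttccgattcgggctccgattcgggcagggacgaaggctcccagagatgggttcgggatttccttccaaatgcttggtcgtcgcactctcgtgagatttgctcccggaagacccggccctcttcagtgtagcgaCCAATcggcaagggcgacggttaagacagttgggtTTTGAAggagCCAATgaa
Top2a: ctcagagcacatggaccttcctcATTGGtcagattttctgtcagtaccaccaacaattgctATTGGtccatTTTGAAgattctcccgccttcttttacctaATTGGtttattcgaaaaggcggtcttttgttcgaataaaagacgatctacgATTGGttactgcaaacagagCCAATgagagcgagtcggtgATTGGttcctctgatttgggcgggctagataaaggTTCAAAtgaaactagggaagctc
Cdk1 fell from 68.8, 66.7, 84.3 and 91.1 to 22.7, 21.5, 11.9 and 16.9 CPM (log2 fold change -2.09 ± 0.16 SE, adjusted p = 7.67e-10) and Cdc20 from 99.5, 92.3, 106 and 123 to 28.8, 37.2, 15.8 and 22.5 CPM (log2 fold change -2.05 ± 0.19 SE, adjusted p = 1.99e-08). These windows were chosen because they hold both words. Over the list, 68 of 78 members had a window, and CCAAT was in 67.6% of them, TTTGAA in 32.4% and both in 26.5%. The shares over all 27025 windows were 34.5%, 16.3% and 5.73%. The match is a description and does not show a bound site.

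Genes of DNA synthesis fell with those of mitosis. Of 56 members tested, 49 fell and 1 rose, with a median log2 fold change of -1.28, and their summed level went from 5894, 5824, 5945 and 6267 to 3436, 3069.5, 2597 and 2697 CPM in mice 1 to 4. Clspn, a checkpoint adaptor, fell (log2 fold change -3.05, adjusted p = 3.33e-06; -3.94 without mouse 2), Mcm10, which helps to start forks (-2.97, adjusted p = 5.51e-07), and Uhrf1, which carries DNA methylation through replication (-2.66, adjusted p = 7.40e-07). E2f7 and E2f8, repressors that are induced late in S phase, fell (log2 fold changes -2.90 and -2.65, adjusted p = 3.43e-07 and 6.29e-04); the call of E2f8 was lost when only the 8 libraries were fitted (adjusted p = 0.07). Rrm2, the regulated subunit of ribonucleotide reductase, fell (log2 fold change -2.52, adjusted p = 8.38e-09). Rpa1 measured 218 ± 26.1 CPM in immature and 215 ± 29.2 CPM in mature cells and Dnmt1 237 ± 66.3 CPM in immature and 156 ± 25.5 CPM in mature cells; neither passed, and Dnmt1 passed without mouse 1 (adjusted p = 0.00203), with total-count scaling, without the mouse block and in limma-voom. Cdt1, a licensing factor, was the member that rose (log2 fold change 0.33, adjusted p = 0.0361), and lost its call without mouse 2 or 3 (adjusted p = 0.201 and 0.223) and in 5 other alternative fits. Mcm6, a subunit of the replicative helicase, fell (log2 fold change -1.40, adjusted p = 4.35e-07). Its promoter (chr1:128359706-128359955, minus strand, RefSeq, GRCm38) is shown because it holds the E2F-type words TTGGCGC and TTCGCGC 2 times each. They overlap as the run TTGGCGCGAA, in capitals, whose other strand reads TTCGCGCCAA.
Mcm6: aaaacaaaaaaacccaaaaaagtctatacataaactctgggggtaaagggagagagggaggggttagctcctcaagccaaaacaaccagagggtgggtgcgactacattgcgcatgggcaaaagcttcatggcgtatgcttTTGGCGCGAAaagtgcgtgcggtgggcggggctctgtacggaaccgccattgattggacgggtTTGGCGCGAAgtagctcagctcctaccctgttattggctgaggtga
At least 1 of these words or TTCCCGC was found in 6.79% of all 27025 windows. Only 44 of 56 replication genes had a window, so a share over the list would be void.

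**Figure D4:**
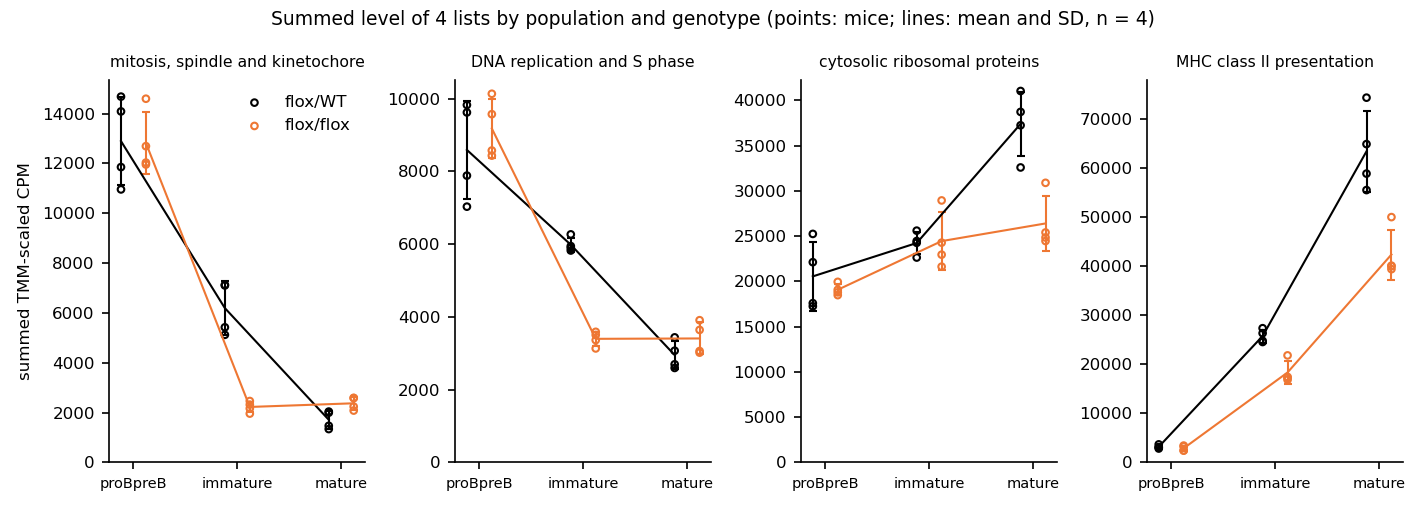
Summed TMM-scaled CPM of 4 gene lists in proBpreB, immature and mature cells; points are mice, lines join the group means with SD (n = 4), black for flox/WT and orange for flox/flox mice. In flox/WT mice the mitosis list fell from 6193 ± 1071 in immature to 1711 ± 359 CPM in mature cells, and in flox/flox mice it was 2226 ± 216 and 2373 ± 254 CPM.

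The upstream regulators of the cycle fell too. Of 20 members of the Myc network and the G1 cyclins, 12 fell (60%) and 3 (1 without mouse 4) rose (15%), beside 18.1% and 16.5% of all genes tested. The median log2 fold change was -0.51. Besides Ccnd2, Cdk6, its partner kinase, fell (log2 fold change -1.80, adjusted p = 5.88e-07), Ccnd3, the cyclin of precursor B cells (-1.09, adjusted p = 2.94e-06), and Ccne1 and Ccne2, the cyclins of the start of S phase (log2 fold changes -1.12 and -1.18, adjusted p = 3.16e-06 and 4.72e-06). Myc, named after its value was seen, measured 86.6, 85.7, 97.6 and 97.2 CPM in the immature and 45.5, 69.1, 50.1 and 52.9 CPM in the mature libraries of mice 1 to 4; mouse 2 fell the least, and the call (log2 fold change -0.78 ± 0.23 SE, adjusted p = 0.0144) was lost without mouse 3 (adjusted p = 0.08). Of 64 replication-dependent histone genes, 25 (15 without mouse 4) fell and 1 (0 with total-count scaling or without the expression filter or with only the 8 libraries compared or with only the 12 flox/WT libraries or in limma-voom or without mouse 1 or 2 or 4) rose. The summed histone level was 11267, 4402, 5026 and 8744 CPM in immature and 2445, 2670.0, 1839 and 1749 CPM in mature libraries. The immature libraries of mice 1 and 4 stood above those of mice 2 and 3, and all were above the mature ones. Many histone genes are near-identical copies whose reads cannot be told apart, so single members are not given.

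Among genes of serine, one-carbon and nucleotide synthesis the share that fell was above that of all genes tested. Of 25 members, 16 fell (64%, against 18.1%) and 2 (1 with total-count scaling or with only the 12 flox/WT libraries or without the mouse block or in limma-voom or without mouse 1 or 3 or 4) rose, with a median log2 fold change of -0.56. Shmt1, the cytosolic serine hydroxymethyltransferase, measured 42.3, 42.4, 33.6 and 31.2 CPM in the immature and 11.5, 8.93, 5.47 and 4.09 CPM in the mature libraries of mice 1 to 4 (log2 fold change -2.40 ± 0.17 SE, adjusted p = 2.09e-10). Psat1 and Phgdh, enzymes that make serine, fell (log2 fold changes -1.90 and -1.45, adjusted p = 1.08e-10 and 2.90e-10), and Mthfd2, of the mitochondrial folate cycle (log2 fold change -1.20, adjusted p = 5.97e-06). Impdh1, an enzyme of guanine nucleotide synthesis, rose (log2 fold change 1.13, adjusted p = 8.90e-05). In glycolysis 9 of 25 members tested rose (36%) and 8 (5 without mouse 4) fell (32%), beside 16.5% and 18.1% of all genes tested. Aldoc, aldolase C, rose from 2.02, 2.54, 3.79 and 3.89 to 15.6, 15.7, 11.2 and 15.0 CPM, Pfkfb4 (log2 fold change 1.00, adjusted p = 3.64e-05), and Slc16a1, a lactate transporter, fell (-0.83, adjusted p = 8.40e-04). Shares of falls near the 18.1% of all genes tested were found in the tricarboxylic acid cycle and in oxidative phosphorylation. In the former 5 (10 with total-count scaling) of 25 members fell (20%) and 0 rose, led by Idh3a (log2 fold change -0.71, adjusted p = 7.00e-06). Of 80 nuclear subunits of oxidative phosphorylation, 15 (8 without mouse 4) fell (18.8%) and 1 (3 without mouse 1), Atp5sl, rose.

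Transcripts of the cytosolic ribosome rose. Of 82 ribosomal protein genes tested, 69 rose and 1 fell, with a median log2 fold change of 0.58, and their summed level was 25604, 24262, 22633 and 24456 CPM in immature and 37243, 41031, 38724 and 32585 CPM in mature libraries of mice 1 to 4. All mature sums exceeded all immature sums. Rps27 measured 468, 468, 438 and 460.4 CPM in the immature and 1436, 1527, 1339.9 and 1128 CPM in the mature libraries of mice 1 to 4 (log2 fold change 1.57 ± 0.14 SE, adjusted p = 1.45e-08). Rpl37a rose (log2 fold change 1.34, adjusted p = 1.72e-08) and Rps21 (1.10, adjusted p = 5.87e-06). Rplp0, a protein of the ribosomal stalk, measured 775 ± 95.8 CPM in immature and 875 ± 68.8 CPM in mature cells and did not pass. The member that fell was Rpl7l1, a paralogue of Rpl7 that acts in ribosome assembly (log2 fold change -0.32, adjusted p = 0.0167), a call lost without mouse 1 or 2 (adjusted p = 0.0611 and 0.114). Pseudogene copies of ribosomal protein genes can share their reads, so single values are uncertain. Of 76 mitochondrial ribosomal proteins, 12 (6 without mouse 1, 22 with total-count scaling) fell (15.8%, against 18.1% of all genes tested) and 2 (0 with total-count scaling or without the expression filter or with only the 8 libraries compared or with only the 12 flox/WT libraries or without mouse 3 or 4, 1 without the mouse block or without mouse 2) rose, with a median log2 fold change of -0.14 (-0.067 without mouse 1). Of 37 aminoacyl-tRNA synthetases 7 (13 with total-count scaling) fell (18.9%, near the same 18.1%) and 0 (1 with at least 10 CPM in 4 libraries or without the mouse block or in DESeq2 or without mouse 1 or 2, 2 in limma-voom) rose.

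Of 29 immediate early and heat shock genes, 11 (7 in limma-voom) rose (37.9%) and 3 fell (10.3%), beside 16.5% and 18.1% of all genes tested. The median log2 fold change was 0.30 (0.19 without mouse 2). Egr1, induced early by receptor signals, fell (log2 fold change -1.55, adjusted p = 3.38e-09), and Dusp5, an ERK phosphatase that such signals induce (-2.24, adjusted p = 2.07e-08), whereas Ier2 rose (1.05, adjusted p = 1.80e-06). In the unfolded protein response 1 (2 without mouse 2) of 25 members tested rose and 7 (4 with only the 12 flox/WT libraries or without mouse 2 or 3 or 4) fell. These shares were 4% and 28%, beside 16.5% and 18.1% of all genes tested. Ppp1r15a, or GADD34, rose (log2 fold change 1.37, adjusted p = 1.57e-07) and Edem1, which clears misfolded glycoproteins, fell (-1.26, adjusted p = 1.13e-08). Of 53 interferon response genes, 10 rose (18.9%) and 13 (8 without the mouse block or without mouse 2) fell (24.5%), beside 16.5% and 18.1% of all genes tested, with a median log2 fold change of -0.20 (-0.13 without mouse 2 and -0.12 without mouse 4). Oas3 rose (log2 fold change 1.20, adjusted p = 1.57e-04) and Ifi47, a GTPase, fell (-0.92, adjusted p = 7.69e-06).

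The same step in mice with both Vhl alleles floxed was set beside these values by testing the difference of the 2 steps over all genes. The difference was called for 1088 genes, 8.47% of those tested: the step was lower in flox/WT than in flox/flox mice for 756 genes, 5.88%, and higher for 332, 2.58%. The cell division lists carried most of their members among the former. 75 of 78 mitosis genes and 45 of 56 replication genes had a lower step in flox/WT mice and none a higher one. The median log2 step of the mitosis list was -2.36 in flox/WT and 0.13 in flox/flox mice. Its summed level in flox/flox mice was 2226 ± 216 CPM in immature and 2373 ± 254 CPM in mature cells (SD, n = 4), and in flox/WT mice 6193 ± 1071 and 1711 ± 359 CPM. In proBpreB cells the sums were 12893 ± 1775 CPM in the control and 12818 ± 1229.7 CPM in the flox/flox animals. The immature populations of the genotypes thus stood apart, while the proBpreB sums overlapped. The mature sums did not overlap either and went the other way, with 1339 to 2040 CPM in flox/WT and 2081 to 2590 CPM in flox/flox mice.

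The gene with the smallest adjusted p for the difference was 2810417H13Rik, the PCNA-associated factor Pclaf, with a log2 step of -2.77 in flox/WT and 0.33 in flox/flox mice (difference -3.10 ± 0.18 SE, adjusted p = 2.11e-10). Shcbp1, Trip13, Spc25, Brip1 and Esco2, all of them genes of dividing cells, followed with log2 differences of -3.07, -2.45, -2.38, -3.16 and -2.84. Bhlhe40 averaged 101 ± 20.3 CPM in immature and 20.9 ± 2.16 CPM in mature cells of flox/WT mice and 111 ± 12.6 CPM in immature and 118 ± 7.76 CPM in mature cells of flox/flox mice (difference -2.34 ± 0.19 SE, adjusted p = 5.02e-08). Nid1, the basement membrane protein nidogen, was the exception among these 8 genes in that it did not pass in flox/WT mice, where it averaged 39.8 ± 14.8 CPM in immature and 47.3 ± 9.30 CPM in mature cells. In flox/flox mice it averaged 10.4 ± 3.09 CPM in immature and 149 ± 34.5 CPM in mature cells (difference -3.56 ± 0.27 SE, adjusted p = 4.28e-08). Wnt10a and Ccnd2 fell less in flox/flox mice, with log2 steps of -1.42 and -1.22 against -5.12 and -3.75 (differences -3.70 ± 0.32 SE, adjusted p = 1.18e-07, and -2.53 ± 0.23 SE, adjusted p = 1.65e-07).

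Ribosomal protein genes differed the other way. 24 of 82 (29.3%, beside 2.58% of all genes tested) had a higher step in flox/WT mice and none a lower one. The median log2 step of the list was 0.58 against 0.11 in flox/flox mice. Of the 25 mature surface markers 5 passed this test (20%) and of the 24 class II members 2 (8.33%), beside 8.47% of all genes tested. H2-Aa and H2-Eb1 rose less in flox/WT mice, with log2 fold changes of 2.16 against 2.86 and of 2.12 against 3.01 (differences -0.70 ± 0.21 SE, adjusted p = 0.0405, and -0.89 ± 0.23 SE, adjusted p = 0.0145). On the log2 scale Cd93 stepped by -2.14 in flox/WT and -2.45 in flox/flox mice, with a difference of 0.31 ± 0.29 SE, adjusted p = 0.593. On the same log2 scale Fcer2a stepped by 2.14 and 2.86 (difference -0.71 ± 0.28 SE, adjusted p = 0.134). Neither of these 2 differences passed the test. Of the 10 Bcl2 survival proteins 3 (30%, beside 5.88% of all genes tested) had a lower step in flox/WT mice and 0 a higher one. These were Bcl2, Bcl2a1a and Bcl2a1b, the last 2 being near-identical copies that could share reads. Of the 6 BH3-only genes, which promote death, 3 (Bbc3, Pmaip1 and Bid) had a lower and 2 (Bcl2l11 and Bmf) a higher step. Together these were 83.3% of that list, beside 8.47% of all genes tested. Bcl2 had a log2 step of 0.30 in flox/WT and 2.28 in flox/flox mice (difference -1.98 ± 0.21 SE, adjusted p = 1.04e-06). Pmaip1 rose by 1.55 against 3.93 on the log2 scale (difference -2.38 ± 0.37 SE, adjusted p = 1.40e-04), and Bbc3 had log2 steps of -0.054 and 2.31 (difference -2.36 ± 0.35 SE, adjusted p = 7.92e-05). Bcl2l11 differed in the other direction, with log2 steps of 0.70 and 0.015 (difference 0.69 ± 0.18 SE, adjusted p = 0.0159). The summed neutrophil and monocyte markers were 15310.4 ± 2127 and 20186 ± 3916 CPM in immature and mature cells of flox/flox mice and 10533 ± 654 and 16210.2 ± 3124 CPM in flox/WT mice; their part in the differences was not tested.

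**Figure D5:**
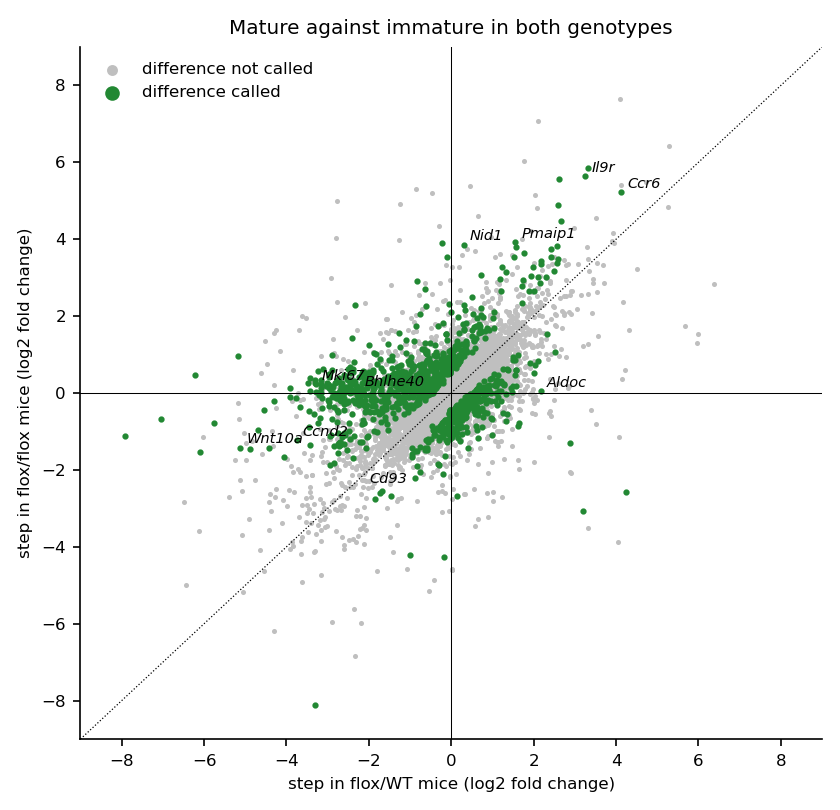
Log2 fold change of mature against immature cells in flox/flox mice against that in flox/WT mice for the 12850 genes tested; green points are the 1088 genes whose difference was called and the dotted line marks equal steps. A group of green points that includes Mki67 lies left of 0 on the horizontal axis and near 0 on the vertical one.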

How the data were processed

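RNA of 3 B cell populations sorted from the bone marrow of 8 mice was amplified with a low-input SMARTer kit and sequenced, per the labels' protocols. The authors deposited raw counts per gene for 24 libraries; CASAVA, FastQC, Trim Galore, HISAT2, featureCounts, DESeq2 and mm10 appear in the submitters' processing notes, without versions. No source used here says whether counting used strand; overlapping genes and antisense partners cannot be told apart. A deposited table of normalised signal was not used, and immunoglobulin genes were not analysed here. Some genes that the naming rule takes are not reported here.

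Counts were filtered with filterByExpr, scaled by TMM and tested with edgeR 4.0.16 in R 4.3.3 (quasi-likelihood F test, Benjamini-Hochberg adjusted p under 0.05). A single fit held all 24 libraries with the mouse as a block, 12 coefficients and 12 residual degrees of freedom, and contrasts were mature minus immature in flox/WT mice and its difference from flox/flox mice. The labels tie the libraries of 1 number and genotype to 1 mouse; deviations of its 2 libraries correlated at 0.0020 to 0.181 over 5000 genes and were highest with the own mouse in 2 of 4. P-values set the mean difference between populations against the spread left after the mouse block, estimated over all 24 libraries. That spread pools the 3 populations and the flox/WT and flox/flox mice, so it is not particular to this step in the 4 flox/WT mice. Alternatives were RLE and total-count scaling, other expression filters, fits of 8 or 12 libraries, no block, DESeq2 1.42.0, limma-voom (limma 3.58.1) and leaving out each flox/WT mouse. The test was tried on simulated data of 12697 genes, where 6 of 12497 unchanged genes were called. Only 100 genes were changed 2-fold and 100 changed 4-fold there, a far smaller share than the 34.5% called in the data. Counting intervals are 95% and cover counting error only; the ratio of counts is scaled by library size.

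Genes were named by rule: Vhl; among called genes, the 15 that rose and the 15 that fell the most, with a mean of at least 2 log2 CPM, the same sign in 4 mice and no overlap; up to 6 called and 2 uncalled members of each list; and the 8 smallest p-values for the genotype difference. Ms4a1, Cxcr5, Ccr7, S1pr1, Ifi30, Vpreb1, Klf2, Cdk1, Cdc20, Cdt1, Mcm6, Myc, Rpl7l1, Pttg1 and Wnt10b, and genes named without values as members of small counts, fall outside the rule and were named after their values were seen. The comparison and the lists were chosen with earlier results of these data known. Coordinates and promoters are RefSeq's (GRCm38.p6).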

Additional observations from a re-analysis of the deposited data

Results flagged for a closer look

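Per-mouse changes, as mature minus immature log2 CPM, were examined for 199 genes named in the text, and in 9 of them 1 of the 4 mice stood far from the others. Chance would give about 1 in 20, here 9.95. Crisp3 changed by 3.16 in mouse 4 and by 3.96 to 4.12 in the others. Gpr183 changed by 2.00 in mouse 1 and by 2.54 to 2.62 in the others. H2-Aa changed by 2.50 in mouse 2 and by 2.02 to 2.06 in the others. Il6ra changed by 0.31 in mouse 3 and by 1.74 to 1.91 in the others. Lta changed by 2.19 in mouse 2 and by 1.23 to 1.30 in the others. Myc changed by -0.31 in mouse 2 and by -0.96 to -0.88 in the others. Rfx5 changed by -0.42 in mouse 2 and by 0.16 to 0.27 in the others. Sox4 changed by -2.35 in mouse 1 and by -1.58 to -1.45 in the others. Tlr3 changed by 0.71 in mouse 2 and by 3.22 to 3.45 in the others.

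For 83 of these genes the step in flox/WT mice differed from that in flox/flox mice by the test of the difference itself (edgeR, adjusted p under 0.05 over all genes). The step was lower in flox/WT mice for 72 and higher for 11. All values that follow are the log2 step in flox/WT mice minus that in flox/flox mice, so a negative value means a lower step in flox/WT mice. Among genes of DNA replication and cell division, the difference was -3.10 for 2810417H13Rik, -3.50 for Aspm, -3.16 for Brip1, -2.31 for Cdc20, -2.05 for Cdk1, -3.56 for Cenpf, -3.22 for Clspn, -3.49 for E2f7, -2.90 for E2f8, -2.84 for Esco2, -3.31 for Kif18b and -3.38 for Mcm10. Among genes of DNA replication and cell division also, the difference was -1.62 for Mcm6, -3.54 for Mki67, -3.15 for Nek2, -0.83 for Rpa1, -2.68 for Rrm2, -3.07 for Shcbp1, -0.78 for Smc4, -2.38 for Spc25, -3.62 for Stil, -3.21 for Top2a, -2.45 for Trip13 and -2.65 for Uhrf1. Among genes of cell cycle entry, survival and metabolism, the difference was 2.14 for Aldoc, -2.36 for Bbc3, -1.98 for Bcl2, 0.69 for Bcl2l11, -0.84 for Bid, -2.53 for Ccnd2, -1.44 for Ccne1, -1.66 for Ccne2, -0.89 for Cdkn1a, -1.32 for Cdkn2c, -0.74 for Egr1 and -1.22 for Fads1. Among genes of cell cycle entry, survival and metabolism also, the difference was -0.99 for Mthfd2, -1.29 for Myc, -1.09 for Phgdh, -2.38 for Pmaip1, -1.22 for Psat1, -2.22 for Shmt1, -0.83 for Slc16a1 and 0.72 for Xbp1. Among genes of recombination and transcription, the difference was 0.53 for Bcl11a, -2.34 for Bhlhe40, -2.53 for Bhlhe41, -1.53 for Hmgb2, -0.95 for Myb, 0.87 for Sox4, 0.88 for Vpreb3 and -3.27 for Zbtb32. Among other genes, the difference was -3.73 for Adgrl2, -1.83 for Chst10, -3.56 for Nid1, -3.82 for Pask, -2.52 for Rapgef4, -3.50 for Rtkn2, 1.62 for Sdc1, -2.57 for Shisa8, -3.70 for Wnt10a and -4.57 for Wnt10b. Among ribosomal protein genes, the difference was 0.75 for Rps21 and 0.97 for Rps27. Among signalling genes, the difference was -1.98 for Fcrl5, -2.39 for Il9r, -0.69 for Lax1, 0.52 for Ltb, -1.27 for Pdcd1lg2, 0.87 for Tnfrsf13b and -1.87 for Traf1. Among surface and antigen presentation genes, the difference was -4.05 for Ackr3, -1.11 for Ccr6, -0.64 for Cd24a, -1.09 for Cr2, -1.24 for Gpr174, -1.10 for Gpr183, -0.70 for H2-Aa, -0.89 for H2-Eb1, -0.76 for Itgb7, -1.21 for Ly6a, -1.49 for Plxnd1 and -2.55 for Rgs13.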

How the results depend on the processing

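The number of genes higher in mature cells was 1613 to 2211 over the alternatives, that of genes lower 1874 to 2839, that of calls of at least 2-fold 1060 to 1560 and that of differences between the genotypes 762 to 1393, all within 1.5 times the values reported. Leaving out each flox/WT mouse in turn gave 1613 to 1909, 1874 to 2157, 1404 to 1560 and 762 to 1393 for these 4 counts. No flox/flox mouse was left out, so how far the differences between the genotypes rest on any of those mice was not examined. In the fit without the mouse block the counts were 2011, 2196, 1533 and 995, so the pairing by mouse moved none of them by over 1.5 times. DESeq2 called 1387 differences between the genotypes. No gene called in the fit reported was called in the opposite direction by an alternative. List medians near 0 changed sign under at least 1 alternative: those of B cell receptor signalling, B lineage and maturation transcription factors, BH3-only genes, Bcl2 survival proteins, HIF pathway components, Toll-like receptors and partners, cytokine receptors, erythroid markers, glycolysis, integrins and adhesion, p53 and targets and stromal and endothelial markers. For named genes, calls that an alternative ended are given beside their values. Depth limits genes at a few counts per library, where 3 counts are 0.253 to 0.368 CPM, and 4 mice a group limit the test: on simulated counts it recovered 72 of 100 genes changed 2-fold and 97 of 100 changed 4-fold. A far smaller share of genes changed in the simulation than was called here, so these rates need not hold for the data.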

Other observations

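Of 26 genes of p53 and its targets, 5 rose and 3 fell, together 30.8% beside the 34.5% of all genes tested. Gadd45g, a stress protein, rose (log2 fold change 1.97, adjusted p = 2.69e-05), Ddb2, which recognises DNA damage (1.05, adjusted p = 6.94e-05) and Sesn1, sestrin 1 (0.89, adjusted p = 5.84e-07). Trp53 itself measured 177 ± 10.7 CPM in immature and 178 ± 39.7 CPM in mature cells (SD, n = 4 mice) and did not pass. In cholesterol and fatty acid synthesis, 1 (2 with only the 12 flox/WT libraries, 3 without mouse 3) of 32 members tested rose and 4 fell, together 15.6%. Scd2, a fatty acid desaturase, fell (log2 fold change -1.62, adjusted p = 7.35e-10) and Fads1, another desaturase (-1.59, adjusted p = 6.56e-05). Among 13 components of the HIF pathway, 2 (0 with total-count scaling, 1 with only the 8 libraries compared or without mouse 2 or 3 or 4) rose and 1 (0 with only the 8 libraries compared or with only the 12 flox/WT libraries or without mouse 1 or 2) fell. These HIF shares were 15.4% and 7.69%, beside 16.5% and 18.1% of all genes tested. Egln1, an oxygen-dependent hydroxylase of HIF proteins, rose (log2 fold change 0.40, adjusted p = 0.0146), a call lost with total-count scaling (adjusted p = 0.0534) and without mouse 2 (adjusted p = 0.0502). Hif1a measured 204 ± 8.51 CPM in immature and 208 ± 26.7 CPM in mature cells and did not pass.

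Of 32 genes associated with marginal zone, B-1 and memory cells, 10 rose (31.2%) and 12 fell (37.5%), beside 16.5% and 18.1% of all genes tested. Myof, myoferlin, fell (log2 fold change -1.93, adjusted p = 7.38e-05); S1pr3, Bhlhe41, Cd5 and Zbtb32 are described above. Of 19 plasma cell markers, 2 (1 with at least 10 CPM in 4 libraries) rose (10.5%) and 6 fell (31.6%), beside the same 16.5% and 18.1%. Eaf2, an elongation factor partner, measured 16.4, 26.3, 17.9 and 19.8 CPM in the immature and 3.14, 2.89, 2.36 and 1.24 CPM in the mature libraries of mice 1 to 4, with every immature value above every mature one (log2 fold change -3.06 ± 0.27 SE, adjusted p = 5.64e-09). Sdc1, which encodes CD138, rose (log2 fold change 0.97, adjusted p = 1.19e-04) and Fkbp11, a chaperone of the secretory route (1.58, adjusted p = 5.69e-05), whereas Xbp1, the factor that plasma cells need, measured 261 ± 36.8 CPM in immature and 228 ± 30.4 CPM in mature cells and did not pass.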
